A study of Mus musculus with 2 samples.

Results

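The genes described here are 10 members of the interleukin-1 (IL-1) family and of the inflammasome, followed across the cell types of the arthritic mouse synovium: the ligands *Il1a*, *Il1b* and *Il18*, the receptor antagonist *Il1rn*, the receptors *Il1r1*, *Il1r2* and *Il1rap*, and the inflammasome components *Nlrp3*, *Pycard* and *Casp1*. They were chosen by gene symbol, and all 10 were found among the 32524 genes of the count matrices. Wild-type C57BL/6 mice, 7 to 10 weeks old, were the source of synovial CD45+CD11b+ cells, which were taken from hind paws on day 17 of arthritis, sorted and profiled by droplet-based 3′ single-cell RNA sequencing. One group had received a single intraperitoneal injection of β-glucan, a fungal cell wall polysaccharide that induces innate immune training, 7 days before arthritis, and the other group had received PBS. All mice of both groups were arthritic, and healthy joints were not analysed here. The study names K/BxN serum transfer as the arthritis model, in its design and in its description of this hind paw sort on day 17. The deposited sample labels instead describe an antibody cocktail followed by lipopolysaccharide, a conflict that the files alone do not resolve. Cells of 4 mice were pooled into 1 library per group. There are thus no replicates: differences between the libraries carry no test, and the 95% intervals given are exact and cover counting error only.

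IL-1α and IL-1β signal through a receptor composed of IL-1R1 and the accessory chain IL-1RAP. The receptor antagonist competes with them for IL-1R1, and IL-1R2 is a decoy that binds IL-1β without signalling. IL-1β and IL-18 are made as precursors that caspase-1 cleaves once a sensor such as NLRP3 has assembled with the adaptor ASC, encoded by *Pycard*. In inflamed joints IL-1 is known to act on synovial fibroblasts and to drive osteoclast formation and bone erosion. The assay measured transcripts, so neither cleavage nor secretion of the cytokines was observed.

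After cells with fewer than 500 detected genes or more than 10% mitochondrial transcripts were left out, 5696 cells with β-glucan and 4553 cells with PBS remained, with medians of 12458 and 14475 unique molecular identifiers (UMIs) per cell. Clusters were rebuilt from the counts without the members and related genes, and were named from marker lists, so their borders may differ from those of the study. The main myeloid cell compartment held 4596 and 3658 cells (β-glucan and PBS, the order used throughout), comprising macrophage-like, antigen-presenting cell (APC)-like and unnamed clusters, and all 10 macrophage markers were present in at least 25% of its cells. Neutrophil-like cells numbered 242 and 173. Despite the sorting gate the libraries also held lymphocyte-like, stromal-like, basophil/mast-like and endothelial-like clusters. The libraries shared 2 barcodes among the cells kept. Doublets were not removed, because the caller marked 0 and 2 cells only. Levels are given as UMIs per 1000000 UMIs of the same set of cells (CPM). The intervals treat UMIs as independent and are too narrow where a few cells hold most UMIs of a gene.

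**Figure D1:**
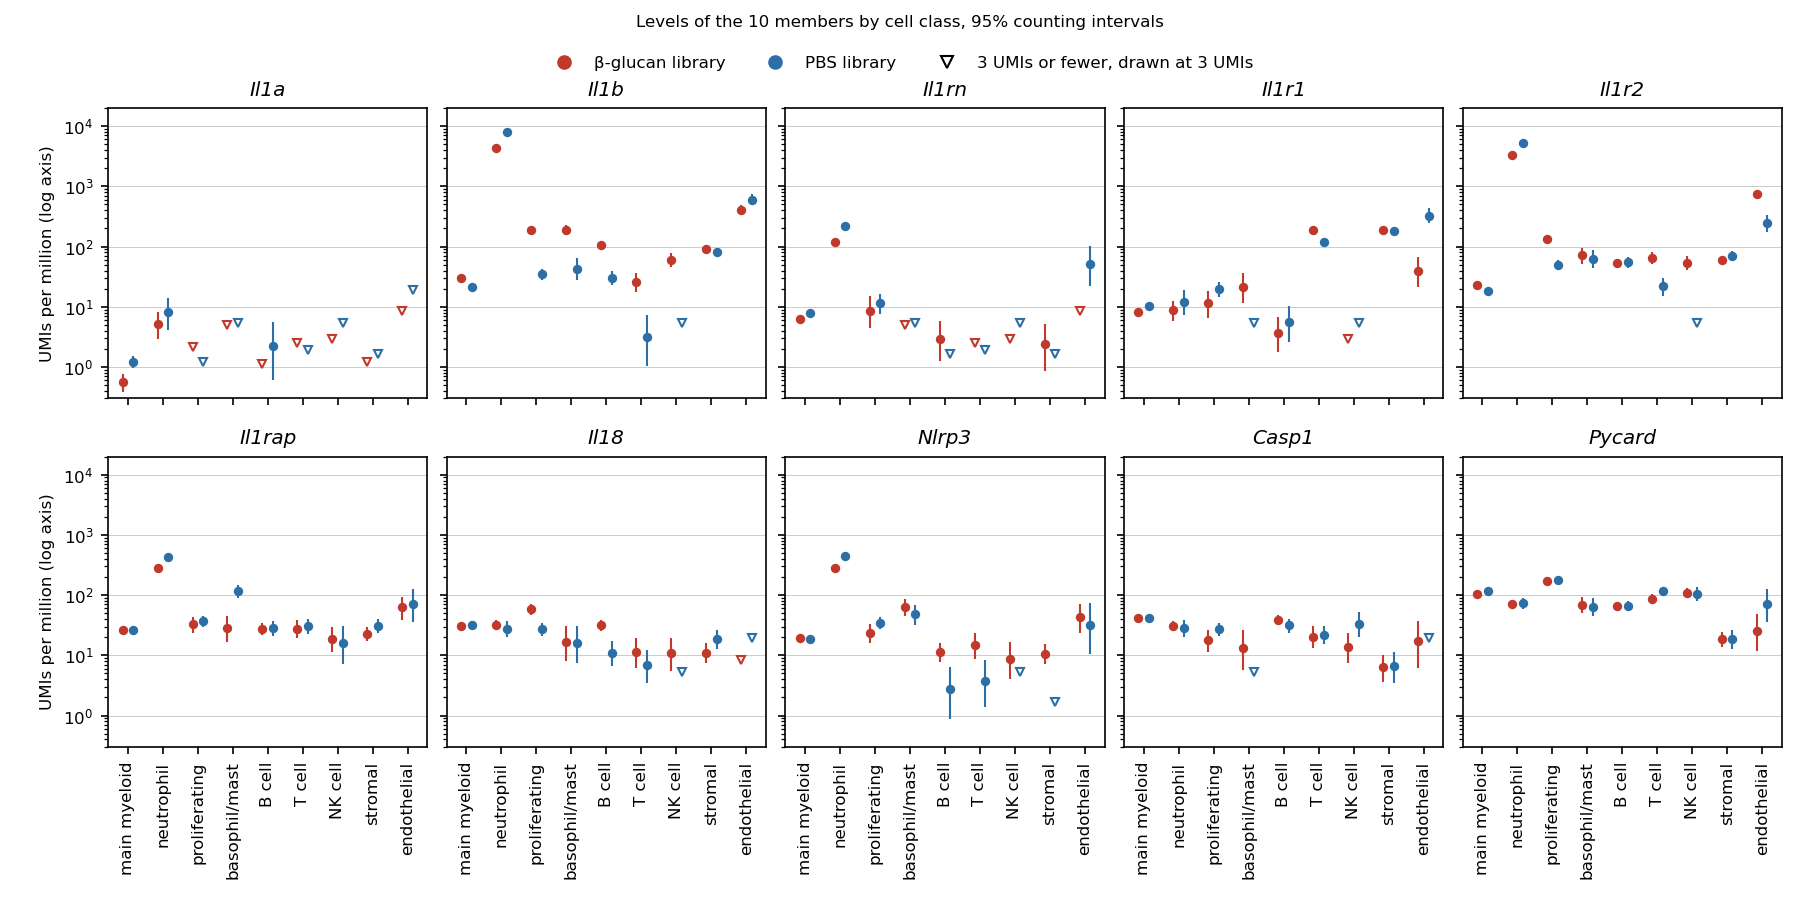
Level of each member (CPM, log axis) in 9 cell classes of the β-glucan library (red) and the PBS library (blue), with 95% counting intervals; open triangles mark classes with 3 UMIs or fewer, drawn at 3 UMIs. *Il1b*, *Il1r2*, *Il1rn*, *Il1rap* and *Nlrp3* peaked in neutrophil-like cells, *Il1r1* in stromal-like, T cell-like and endothelial-like cells, and *Pycard* was spread over the hematopoietic classes. *Casp1* was found in these classes too, but was low in basophil/mast-like cells, at 13.3 and 3.55 CPM on 8 and 2 UMIs. The endothelial-like *Il1r1* level of the PBS library rested mostly on 1 cell.

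*Il1b*, encoding the ligand IL-1β, and *Il1r2*, encoding the decoy receptor, were the members most restricted to neutrophil-like cells. *Il1b* stood at 4388 CPM in neutrophil-like cells with β-glucan and at 7915 CPM with PBS, against 30.02 and 20.94 CPM in the main myeloid cell compartment. *Il1r2* stood at 3255 and 5308 CPM in neutrophil-like cells, against 22.7 and 18.5 CPM in the compartment. Neutrophil-like cells made up 4.25% and 3.80% of the cells but held 82.5% and 87.5% of all *Il1b* UMIs and 81.9% and 83.3% of all *Il1r2* UMIs. Because the 2 genes were among the transcripts that lead this cluster, although they did not enter the clustering, their height there is a description of the cluster.

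Over the 19 clusters *Il1r2* was the gene most similar to *Il1b* in its level, with a Pearson correlation of 0.93 of log2(CPM + 1) among 10909 genes, followed by *Hcar2* and *Ptgs2*, both at 0.92. The clusters share the same 2 libraries, and the neutrophil-like cluster lay far above the others in both genes. As the genes shared this pattern, their promoters are shown: the 250 bases before the start that RefSeq lists, on build GRCm38.p6, written 5′ to 3′ along the gene's own strand. The *Il1b* window lies on the minus strand at chr2:129371140-129371389 and that of *Il1r2* on the plus strand at chr1:40085843-40086092. Each of these genes had 1 listed start. The gene coordinates given below come from another build and annotation. Whether the listed *Il1r2* start lies at the annotated gene start was not tested, so its window may not precede the first base of the gene. Capitals mark TATAAA, the core of the TATA box, at which general transcription factors assemble.
Il1b: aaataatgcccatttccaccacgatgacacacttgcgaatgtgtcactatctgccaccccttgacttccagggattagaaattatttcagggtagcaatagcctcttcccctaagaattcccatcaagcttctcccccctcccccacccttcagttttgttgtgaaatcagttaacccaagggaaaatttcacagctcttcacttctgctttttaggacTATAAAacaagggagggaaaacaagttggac
Il1r2: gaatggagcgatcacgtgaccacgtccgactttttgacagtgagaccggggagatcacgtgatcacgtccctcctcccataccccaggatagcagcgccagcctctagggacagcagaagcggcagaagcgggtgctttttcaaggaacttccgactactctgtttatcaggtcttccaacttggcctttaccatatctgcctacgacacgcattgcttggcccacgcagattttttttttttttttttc
The *Il1b* match began 31 bases before the start, and the *Il1a* promoter held one 32 bases and that of *Il18* one 175 bases before its start, whereas the window of *Il1r2* held none. These letters occurred on either strand in the same 250 bases in 12.4% of 32851 promoters. A further 4 letter patterns were searched on both strands, namely AGGAAG for ETS factors, TTGCNNAA for C/EBP factors, GGG and TTTCC separated by any 2 bases for NF-κB, and TGANTCA for AP-1, which occurred in 29.5%, 9.56%, 1.41% and 6.75% of the promoters. Neither printed window held any of the 4. A match is a string of letters, not a binding site, and the absence of a match says nothing of a factor's binding elsewhere.

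On build GRCm39 *Il1b* occupies chr2:129206490-129213059 on the minus strand and *Il1a* chr2:129140291-129152098 on the same strand, 54391 bases away. *Il1r2* at chr1:40113239-40164391 and *Il1r1* at chr1:40264174-40356417, both on the plus strand, are separated by 99782 bases. Noncoding transcripts overlap some members on the opposite strand, namely *Il1bos* at *Il1b*, *Gm14023* at both *Il1b* and *Il1a*, and *Gm16894* at *Il1r2*. Their UMIs, 109, 179 and 286, were few beside the 31166 of *Il1b* and the 22730 of *Il1r2*, but the 179 of *Gm14023* exceeded the 147 of *Il1a*. *Il18* overlaps the coding genes *Bco2* and *Tex12*, with 485 and 36 UMIs against 4497 of its own. The strand setting of the counting is not given in the sources used here, so the level of *Il1a* is uncertain.

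**Figure D2:**
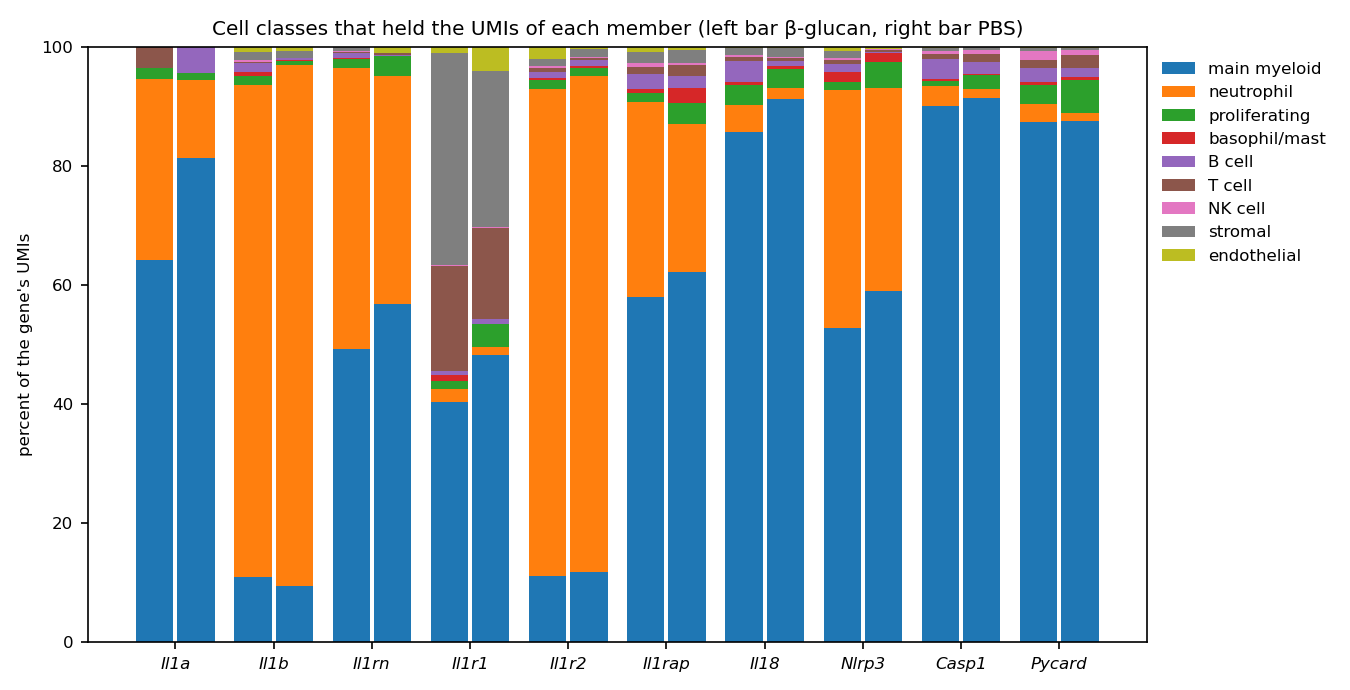
Share of each member's UMIs held by each cell class (percent, bars adding up to 100 within a library), for the β-glucan and the PBS library. *Il1b* and *Il1r2* UMIs came mostly from neutrophil-like cells, those of *Casp1*, *Pycard* and *Il18* mostly from the main myeloid compartment, which held 83.2% and 85.2% of all UMIs, and those of *Il1r1* from the compartment, stromal-like and T cell-like cells.

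Detection in single cells followed the same order. To set classes of unequal depth side by side, each cell was thinned to 2000 UMIs and shallower cells were left out, which were 10 of the 415 neutrophil-like cells. *Il1b* was then detected in 97.9% and 97.6% of neutrophil-like cells and *Il1r2* in 93.7% and 98.2%. In the compartment the shares were 1.91% and 1.96% for *Il1b* and 1.85% and 2.15% for *Il1r2*. B cell-like cells, which are not known as a source of *Il1b*, had 2.17% and 1.72% at median depths of 5563 and 5958 UMIs, against 13049 and 15484 in the compartment. The share of compartment cells with an *Il1b* UMI was therefore near that of B cell-like cells, and it is not read as expression by the compartment at large. The B cell-like share is not a measure of background alone, because cells carrying *S100a8* and *S100a9*, described below, held most B cell-like *Il1b* UMIs. In T cell-like cells *Il1b* was detected in 1 of 118 and 2 of 128 thinned cells.

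The neutrophil-like cluster was not uniform. At a finer resolution it divided into cells of lower UMI content (113 and 129 cells, medians of 4088 and 4375 UMIs) and cells of higher UMI content (129 and 44 cells, medians of 16999 and 19002 UMIs). The lower-UMI cells carried the 7 neutrophil markers at a summed level of 79744 and 70062 CPM and the 10 macrophage markers at 1282 and 599 CPM. In the higher-UMI cells these sums were 7353 and 13966 CPM for the neutrophil list and 9410 and 7101 CPM for the macrophage list, and 17.8% and 65.9% of the cells were among those with the highest doublet scores. None of the markers of either list was at 0 in either cluster. The part of 2-cell droplets in the higher-UMI cluster was not tested. The lower-UMI cells were 46.7% and 74.6% of the neutrophil-like cells but held only 16.9% and 43.0% of their UMIs. The higher-UMI cells held 83.1% and 57.0%. Most UMIs in the totals behind the levels of all neutrophil-like cells thus came from the higher-UMI cells, and more so with β-glucan.

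In the lower-UMI neutrophil-like cells *Il1b* was among the most abundant of all transcripts, with rank 5 by UMIs in both libraries, and *Il1r2* took ranks 6 and 7. Both transcripts were found together in 97.3% and 98.4% of the thinned cells. *Nlrp3*, the inflammasome sensor, was detected in 70.5% and 65.4% of these cells and *Il1rap* in 54.5% and 55.9%. The receptor antagonist *Il1rn* was detected in 33.0% and 33.9%. *Il1r1*, the signalling receptor, was found in 0 of 112 and 1 of 127 cells. *Casp1* reached 3.57% and 2.36% and *Pycard* 4.46% and 3.15%, against 7.36% and 7.52% for *Casp1* and 16.9% and 18.8% for *Pycard* in the compartment. *Nlrp3* and *Pycard* were found in the same cell in 3 of 112 and 2 of 127 cells. *Pycard* was detected in only 5 and 4 cells at this depth, which limits that overlap. The low number thus does not show that the sensor and its adaptor lay in separate cells.

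Between the libraries, the summed level of *Il1b* in neutrophil-like cells was lower with β-glucan (log2 ratio −0.85, interval −0.89 to −0.82), and that of *Il1r2* was lower as well (−0.71, −0.75 to −0.66). *Il1rn* stood at 119 CPM and 216 CPM (−0.86, −1.08 to −0.65). *Il1rap* stood at 285 and 427 CPM (−0.58) and *Nlrp3* at 282 and 442 CPM (−0.64). These 5 were all the members past the fold threshold, a log2 ratio of 0.32 in either direction, among the 8 measured at 20 CPM or more, each lower with β-glucan, whereas *Il18*, *Casp1* and *Pycard* had log2 ratios of 0.20, 0.12 and −0.04 with intervals that held 0. Among all 6342 genes measured in these cells 46.1% were past it, 29.3% higher and 16.8% lower with β-glucan. Past the fold, 63.6% of genes were thus higher, and 48.8% after scaling by the trimmed mean of M-values. The median log2 ratio was −0.61 over the members and 0.11 over all genes.

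The makeup of the cluster moved with these differences. Over all neutrophil-like cells the neutrophil markers summed to 19559 and 38068 CPM and the macrophage markers to 8040 and 4307 CPM, so the library with more macrophage transcripts in this cluster had less of the 5 members. Within the lower-UMI cells alone *Il1b* stood at 12744 and 14005 CPM (log2 ratio −0.14, −0.18 to −0.09) and *Il1r2* at 8997 and 8947 CPM (0.01, −0.05 to 0.06). *Il1rn* and *Nlrp3* had log2 ratios of −0.22 and 0.07 there, with intervals that held 0. *Il1rap* was higher with β-glucan, at 844 and 679 CPM (0.31, 0.12 to 0.50). Of the 7 members measured in these cells only *Il18* was past the threshold, and higher, on 24 and 12 UMIs, where 45.6% of 4906 genes were past it, 22.4% higher and 23.2% lower.

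Per cell, the same shift was visible. Among 2000 UMIs of a neutrophil-like cell the median number of *Il1b* UMIs was 11 with β-glucan and 22 with PBS, and that of *Il1r2* 9 and 12. In the lower-UMI cells the medians were 29 and 29 for *Il1b*, with upper deciles of 46.8 and 53.4, and 18 and 15 for *Il1r2*. In the higher-UMI cells they were 6 and 7 for *Il1b*, and the level over these cells was 2693 and 3327 CPM (−0.31, −0.37 to −0.24). The difference in *Il1b* over all neutrophil-like cells was thus larger than within either of its clusters.

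**Figure D3:**
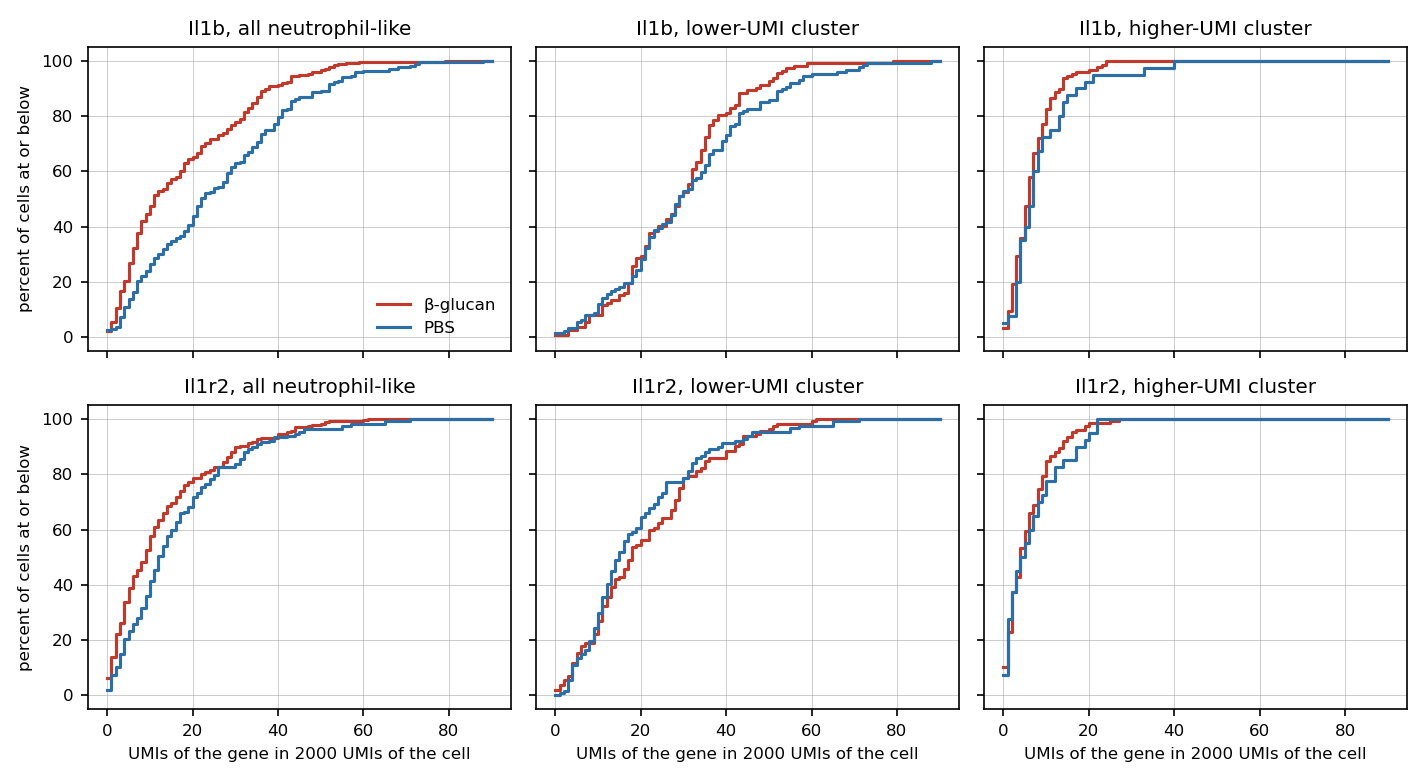
Cumulative share of neutrophil-like cells (percent, y axis) at or below a given number of *Il1b* UMIs (top row) or *Il1r2* UMIs (bottom row) in 2000 UMIs of the cell, for all neutrophil-like cells, the lower-UMI cluster and the higher-UMI cluster, with β-glucan in red and PBS in blue. The *Il1b* curves lie apart over all cells, with medians of 11 and 22, and meet at a median of 29 in the lower-UMI cluster.

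In the main myeloid cell compartment, the population compared between the groups in the study, *Il1b* was higher with β-glucan, with 1957 and 1263 UMIs (log2 ratio 0.52, 0.42 to 0.62). *Il1b* was the only one of 9 members measured at 5 CPM or more that was past the fold threshold, where 7.06% of 9807 genes were past it, 3.9% higher and 3.16% lower. *Il1r2* followed with a log2 ratio of 0.29 (0.18 to 0.41). The median log2 ratio was −0.03 over the 9 members and 0.03 over all genes. Across all cells kept, *Il1r2* alone of 9 members was past the fold (169 and 134 CPM, 0.34), where 9.5% of 10380 genes were, 5.71% higher and 3.79% lower. After scaling by the trimmed mean of M-values (TMM) no member was past it, and the *Il1r2* ratio turned to −0.27 with equal weight per cell and to −0.14 with cells thinned to 2000 UMIs.

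*Il1b* in the compartment came from few cells. UMIs of it were found in 263 of 4596 and 240 of 3658 cells, and the 1% of cells with most of them held 72.8% and 72.3% of its UMIs. For *Il1r2* that share was 74.1% and 60.5%. Cells with at least 5 *Il1b* UMIs numbered 81 and 56. Of these, 12 and 1 also carried at least 5 UMIs of *S100a8* and *S100a9*, the calprotectin genes. The summed level of both genes was highest in neutrophil-like cells, at 16805 and 32363 CPM, but they were not confined to them.

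Compartment cells with at least 5 such *S100a8* and *S100a9* UMIs numbered 19 with β-glucan and 4 with PBS, and held 530 and 35 *Il1b* UMIs, or 27.1% and 2.77%. Without them *Il1b* stood at 22.1 and 20.4 CPM, a log2 ratio of 0.12 (0.01 to 0.23) in place of 0.52. *Il1r2* stood at 16.5 and 18.1 CPM without them, a log2 ratio of −0.13 (−0.25 to −0.01), so its direction turned over the compartment. Within APC-like cells, described below, it did not turn. The compartment differences of both genes thus changed when 19 and 4 cells that carried *S100a8* and *S100a9* were left out. Some of the 19 lay in the small cluster led by *Plac8*, *Chil3* and *Ly6c2* described below. The source of the *S100a8* and *S100a9* UMIs in each cell was not tested. Over the whole compartment the 7 neutrophil markers summed to 42.6 and 37.2 CPM, and 1 of them was at 0 in the PBS library.

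In the stromal-like and B cell-like classes nearly all *Il1b* was found in such cells. In stromal-like cells 5 and 3 cells with at least 5 *S100a8* and *S100a9* UMIs held 97.8% and 98.6% of the *Il1b* UMIs, and in B cell-like cells 5 and 1 cells held 92.7% and 90.9%. The number of *Il1b* UMIs per 100 *S100a8* and *S100a9* UMIs was 24.5 in the B cell-like and 20.6 in the stromal-like cells of the β-glucan library, against 26.1 and 24.5 in the neutrophil-like cells of the 2 libraries. In the PBS library it was higher, at 48.2 in the B cell-like and 84.3 in the stromal-like cells. In the compartment this ratio was 144 and 202, so *S100a8* and *S100a9* were scarcer there relative to *Il1b*. The T cell-like class held 32 and 5 *Il1b* UMIs, and in the β-glucan library all 32 were in 1 cell, which carried fewer than 5 *S100a8* and *S100a9* UMIs. Of the basophil/mast-like cells with at least 5 *Il1b* UMIs, 4 of 5 with β-glucan and 0 of 3 with PBS carried at least 5 *S100a8* and *S100a9* UMIs, and of the proliferating-like cells 5 of 6 and 2 of 4.

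**Figure D4:**
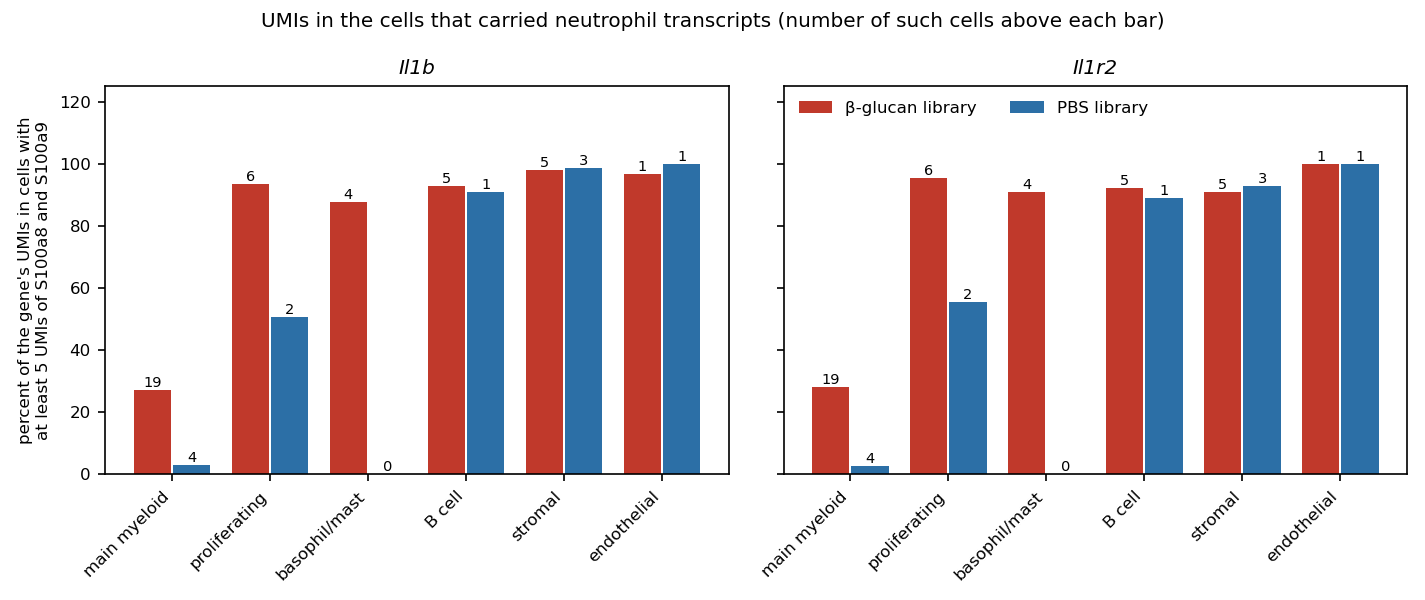
Percent of the *Il1b* UMIs (left) and *Il1r2* UMIs (right) of the drawn cell classes that lay in cells with at least 5 UMIs of *S100a8* and *S100a9*, with the number of such cells above each bar, for the β-glucan (red) and PBS (blue) libraries. Neutrophil-like, T cell-like and natural killer cell-like cells are not drawn. In the main myeloid compartment 19 and 4 cells held 27.1% and 2.77% of *Il1b*, whereas in stromal-like cells 5 and 3 cells held 97.8% and 98.6%.

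The *Il1b* difference was uneven within the compartment. In macrophage-like cells *Il1b* stood at 17.5 CPM (735 UMIs) with β-glucan and 5.90 CPM (197 UMIs) with PBS, a log2 ratio of 1.57 (1.34 to 1.81), and of 1.47 (1.22 to 1.73) without the *S100a8* and *S100a9* carrying cells. Cells with at least 5 *Il1b* UMIs numbered 28 of 2994 and 7 of 2110. The log2 ratio was 2.54 (2.04 to 3.09) in the cluster led by *Apoe* and *Gpnmb*, at 29.4 and 5.04 CPM, and 1.60 in the cluster led by *Spp1* and *Cav1*, at 23.6 and 7.81 CPM. In the other macrophage-like clusters it was 0.78 (led by *Vsig4* and *S100b*), 0.003 (*Fxyd2* and *Aqp1*, 14 and 12 UMIs) and −0.67 (*Plxna4* and *Taco1*, 7 and 8 UMIs). The cluster led by *Ednrb* and *C4b*, left unnamed and so not counted as macrophage-like, had 0.10 on 25 and 18 UMIs. The thinned share of macrophage-like cells with an *Il1b* UMI, 1.26% and 0.87%, was again no higher than in B cell-like cells. The higher level in the β-glucan library was thus carried by a small number of cells.

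APC-like cells had more *Il1b* than macrophage-like cells, at 73.5 and 49.4 CPM (0.57, 0.45 to 0.70), and more *Il1r2*, at 78.1 and 48.8 CPM (0.68, 0.56 to 0.80). Within them the cluster led by *Ccl17* and *Cd209a* had the most, with 166 and 88.8 CPM of *Il1b* (0.90) and 210 and 98.9 CPM of *Il1r2* (1.09). It held 200 cells with β-glucan and 362 with PBS. Without the *S100a8* and *S100a9* carrying cells, the log2 ratios in APC-like cells were 0.15 for *Il1b* and 0.33 for *Il1r2*. With all cells counted, APC-like cells held 1198 of the 1481 and 995 of the 1117 *Il1r2* UMIs of the compartment. They were 911 of its 4596 and 1026 of its 3658 cells, so its makeup differed between the libraries. The part of this makeup in the turned *Il1r2* direction of the compartment was not tested. After thinning *Il1b* was detected in 4.52% of APC-like cells over both libraries, against 1.98% of B cell-like and 5.39% of basophil/mast-like cells. Of the 8 compartment clusters that had 100 cells or more per library, 5 had an *Il1b* interval above 0 and 5 an *Il1r2* interval above 0, and none had one below 0. This count includes the cells carrying *S100a8* and *S100a9*, and the intervals are too narrow where few cells hold most UMIs. The clusters also share the same 2 libraries, so they do not replicate each other.

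**Figure D5:**
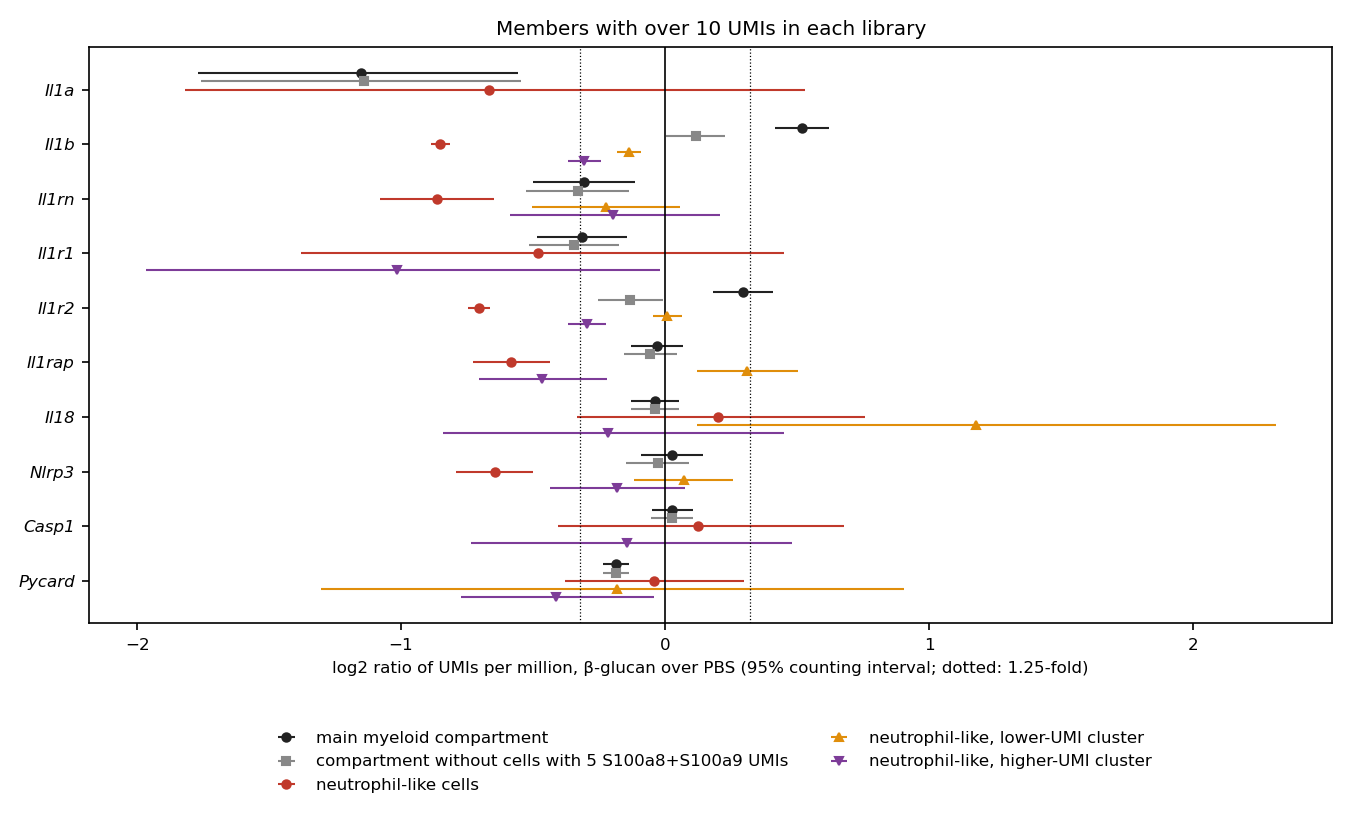
Log2 ratio of each member, β-glucan over PBS, with 95% counting intervals, in the main myeloid compartment with (black) and without (grey) cells carrying *S100a8* and *S100a9*, all neutrophil-like cells (red) and the lower-UMI (orange) and higher-UMI (purple) neutrophil-like cluster, where both libraries had over 10 UMIs; dotted lines mark the fold threshold. *Il1b* and *Il1r2* lie above 0 in the main myeloid compartment (0.52 and 0.29) and below 0 in neutrophil-like cells (−0.85 and −0.71), where the lower-UMI cluster alone gives −0.14 and 0.01.

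Among the other ligands, *Il1a*, encoding IL-1α, was scarce throughout, with 56 and 91 UMIs in all cells. It was highest in neutrophil-like cells, at 5.09 and 8.09 CPM on 17 and 12 UMIs, and reached 15.7 CPM on 10 UMIs in the lower-UMI cells of the PBS library. In the compartment it had 36 and 74 UMIs in 19 and 17 cells, a log2 ratio of −1.15 (−1.77 to −0.56). The direction was not the same within it: APC-like cells had 13 and 65 of these UMIs, but macrophage-like cells 23 and 8. The cluster led by *Ccl17* and *Cd209a* had 3 and 50 *Il1a* UMIs in its 200 and 362 cells. *Il1a* stayed below the minimum of 5 CPM in the compartment and was not counted among the measured members. *Il18*, whose product is matured by caspase-1 as well, stood at 31.2 and 32.1 CPM in the compartment (−0.04, −0.13 to 0.05), which held 85.7% and 91.2% of its UMIs and 83.2% and 85.2% of all UMIs. It was not particular to the compartment: neutrophil-like cells had 31.7 and 27.6 CPM, proliferating-like cells 58.1 and 27.1 CPM, and B cell-like cells 31.8 and 10.99 CPM. Over the 8 compartment clusters with 100 cells or more in each library, *Il18* ran from 22.8 to 42.5 CPM in a library, both with PBS, and the smaller cluster led by *Clec9a* and *Xcr1* reached 52.1 CPM on 39 UMIs with β-glucan.

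The receptor antagonist *Il1rn* was found in neutrophil-like cells and in the compartment, which held 47.2% and 38.3%, and 49.3% and 56.8%, of its UMIs. In the compartment its level was 6.35 and 7.86 CPM (−0.31, −0.50 to −0.11), lower with β-glucan but not past the fold threshold. A small unnamed cluster led by *Ccl2* and *Chil3* had the highest *Il1rn* level of the compartment, 67.5 CPM over both libraries. The 28 *Il1rn* UMIs of this cluster came from its 56 PBS cells, and its 6 β-glucan cells had 0, which allows up to 3 UMIs.

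*Il1r1*, the signalling receptor, had a distribution unlike that of the other members. Stromal-like cells, marked by collagen genes, had 186 and 183 CPM (0.02, −0.18 to 0.23) and T cell-like cells 190 and 121 CPM (0.65, 0.37 to 0.93). Endothelial-like cells had 39.6 and 327 CPM on 14 and 51 UMIs in 27 and 18 cells. In the PBS library 41 of these 51 UMIs were in 1 cell. The values of the 2 libraries overlapped between these 3 classes, so their order is not settled. The compartment had 8.16 and 10.2 CPM (−0.31, −0.48 to −0.14), and neutrophil-like cells 8.68 and 12.1 CPM. APC-like cells held 410 of the 532 and 481 of the 612 *Il1r1* UMIs of the compartment, and they were 911 of its 4596 and 1026 of its 3658 cells. Within APC-like cells *Il1r1* stood at 26.7 and 23.6 CPM (0.18, −0.01 to 0.37) and within macrophage-like cells at 2.03 and 2.94 CPM (−0.53, −0.97 to −0.10), so the makeup of the compartment moved with its lower value. Through its size the compartment nevertheless held 40.4% and 48.3% of all *Il1r1* UMIs, against 35.6% and 26.2% in stromal-like and 17.6% and 15.2% in T cell-like cells. After thinning, *Il1r1* was detected in 22.0% and 20% of stromal-like, 26.3% and 14.1% of T cell-like and 0.84% and 1.20% of neutrophil-like cells.

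Within T cell-like cells *Il1r1* belonged to one of 2 groups seen at the finer resolution. The cells led by *Il23r*, *Trdc* and *Scart1*, genes known from γδ T cells that make IL-17, had 395 and 359 CPM (0.14, −0.16 to 0.44), with 53.8% and 41.0% of thinned cells positive. Those led by *Ctla4*, *Il2ra* and *Ikzf2*, genes known from regulatory T cells, had 31.9 and 14.6 CPM. The first group numbered 52 and 39 cells and the second 68 and 89, so the makeup of the T cell-like class moved with its *Il1r1* level. In the compartment the cluster led by *Ccl17* and *Cd209a* had the most *Il1r1*, at 61.1 and 37.5 CPM (0.71, 0.46 to 0.95).

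*Il1rap*, the shared accessory chain, was found in every class. Its level in the compartment was 25.9 and 26.4 CPM (−0.03, −0.13 to 0.07), and over the 8 larger compartment clusters it ran from 18.7 to 35.2 CPM in a library. The smaller clusters spread wider, from 10.6 CPM on 3 UMIs to 61.4 CPM on 46 UMIs. Basophil/mast-like cells, which also signal through this chain for IL-33, had 28.2 CPM on 17 UMIs with β-glucan and 117 CPM on 66 UMIs with PBS. Stromal-like cells, with *Il1r1* at 186 and 183 CPM, had 23.0 and 30.8 CPM of *Il1rap*.

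The inflammasome components parted along cell types. *Nlrp3* was highest in neutrophil-like cells, which held 39.9% and 34.0% of its UMIs, and stood at 19.2 and 18.8 CPM in the compartment (0.02, −0.09 to 0.14). A small unnamed cluster of 24 and 23 cells had the highest *Nlrp3* of the compartment, at 82.2 and 71.0 CPM on 16 and 20 UMIs. Its leading genes were *Plac8*, *Chil3* and *Ly6c2*, known from classical monocytes, along with *Adgre4* and *Ace*, known from nonclassical ones. *Il1b* stood there at 354 and 128 CPM, beside 166 and 1 *S100a8* and *S100a9* UMIs. Without the 3 β-glucan cells that carried at least 5 of the latter, *Il1b* stood at 132 and 128 CPM and *Nlrp3* at 78.1 and 71.0 CPM. In the *Spp1* and *Cav1* cluster *Nlrp3* was higher with β-glucan, at 34.1 and 21.1 CPM (0.69, 0.46 to 0.93), while 3 of the 8 larger compartment clusters had intervals below 0.

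*Casp1*, encoding the protease, was even across the compartment, at 42.1 and 41.2 CPM (0.03, −0.05 to 0.11), and none of the 8 larger clusters had an interval without 0. The compartment held 90.1% and 91.4% of its UMIs. Stromal-like cells had 6.34 and 6.60 CPM. *Pycard*, encoding the adaptor, stood at 102.5 and 116 CPM in the compartment and was slightly lower with β-glucan (−0.18, −0.23 to −0.14). Of the 8 larger clusters 7 had a lower value with β-glucan, in 3 with an interval below 0. In the neutrophil-like cells *Pycard* was at 70.7 and 72.8 CPM, and at 24.9 and 28.2 CPM in the lower-UMI cells, whose macrophage transcripts were fewest.

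Genes around the members were read from fixed lists. Of 11 genes of IL-1 receptor signalling, all were measured in the compartment and none was past the fold threshold, where 7.06% of all genes were: *Tab2*, an adaptor of the kinase TAK1, stood at 175 and 169 CPM, and *Irak2*, a kinase of the receptor complex, at 96.6 and 95.4 CPM. *Irak4*, which starts the kinase cascade, had 51.1 and 43.4 CPM (0.24). The highest level of *Irak2* was in neutrophil-like cells, at 297 and 454 CPM. The median log2 ratio of the list was 0.07 in the compartment and −0.29 in neutrophil-like cells.

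Of 8 other inflammasome sensors measured in the compartment, 2 were past the fold and higher with β-glucan, and 1 was past it and lower, against 3.9% and 3.16% of all genes. The former were *Nlrp1a* (7.59 and 6.0 CPM, 0.34) and *Nlrc4*, the partner of the NAIP receptors for bacterial flagellin (20.1 and 16.0 CPM, 0.32). The latter was *Mefv*, encoding pyrin (9.57 and 12.9 CPM, −0.43). *Nlrp1a* and *Nlrc4* lay just past the threshold, at 0.339 and 0.325 against 0.322. TMM scaling moved the ratios in the compartment by −0.019, which takes both below it. *Aim2*, a DNA sensor, stood at 98.2 and 80.8 CPM and *Naip2* at 60.1 and 50.9 CPM. None of 8 partners and effectors was past it, among them *Txnip* (523 and 442 CPM), *Ninj1*, which ruptures the membrane of dying cells (287 and 263 CPM), *Nek7*, a partner of NLRP3 (0.31), and *P2rx7*, the ATP receptor that activates it (0.26). Their median log2 ratio was 0.19, against 0.03 for all genes. The libraries also differed in the UMIs from genes spanning 100 kb or more, a median of 19.8% and 17.9% per compartment cell. The part of this difference in small ratios such as these was not tested.

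Other receptors of the family lay in other cells. *Il1rl1*, the IL-33 receptor, reached 1746 CPM in basophil/mast-like cells, *Il18r1*, of the IL-18 receptor, 558 CPM in T cell-like cells, and *Il18rap*, its accessory chain, 391 CPM in natural killer cell-like cells, with 158 and 222 CPM in neutrophil-like cells. Of the 4 receptors measured in the compartment, 1, *Il1rl1*, was past the fold and lower with β-glucan (20.7 and 29.3 CPM, −0.50), against 3.16% of all genes. Of a list of 7 other ligands of the family and the IL-18 binding protein, 3 were matched, namely *Il33*, *Il1f10* and *Il18bp*, which encodes the binding protein. None of them reached 5 CPM in the compartment, and *Il33* was highest in stromal-like cells at 16.8 CPM.

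Inflammatory response genes did not move as a set with *Il1b* in the compartment. Of 7 measured, 1 was past the fold and higher with β-glucan, the chemokine gene *Ccl3* (22.6 and 17.1 CPM, 0.40), and 3 were past it and lower, against 3.9% and 3.16% of all genes. The lower ones were *Nfkbia*, an inhibitor of NF-κB (136 and 209 CPM, −0.62), the chemokine gene *Cxcl2* (71.7 and 96.0 CPM, −0.42) and *Tnf*, encoding tumor necrosis factor (26.1 and 34.2 CPM, −0.39). *Nfkbiz* stood at 175 and 142 CPM (0.30) and *Ccl4* at 22.0 and 18.1 CPM (0.28). Below the minimum of 5 CPM, *Ptgs2* was higher with β-glucan, on 259 and 96 UMIs (1.32, 0.98 to 1.67). *Ptgs2* was highest in neutrophil-like cells, at 782 and 1331 CPM. Its compartment ratio without the cells carrying *S100a8* and *S100a9* was not examined. *Cxcl1* (−1.07) and *Cxcl3* (−0.79), also below it, were lower, and *Il6* had an interval that held 0. In neutrophil-like cells 7 of 8 were past the fold and lower with β-glucan, against 16.8% of all genes. Immediate-early and heat shock genes respond to tissue dissociation. Of 11 in the compartment, 4 immediate-early genes were past the fold and lower and 0 were higher, against 3.16% and 3.9% of all genes. The 4 were *Dusp1* (246 and 344 CPM, −0.49), *Junb* (263 and 337 CPM, −0.36), *Ier2* (84.6 and 107 CPM, −0.33) and *Fosb* (98.3 and 123 CPM). *Fosb* lay just past the threshold, at −0.3224 against 0.3219. *Fos* stood at 460 and 455 CPM and *Jun* had a log2 ratio of 0.22. The heat shock genes *Hspa1a* and *Hspa1b* were not lower past the fold, at 0.17 and −0.003. In neutrophil-like cells 6 of 11 were lower past the fold and 1, *Hspa1a* (0.44), was higher, against 16.8% and 29.3% of all genes. The counts of both lists in neutrophil-like cells stand beside the change in makeup given above, with neutrophil markers at 19559 and 38068 CPM and 46.7% and 74.6% of the cells in the lower-UMI cluster, and the part of that change was not tested. Dissociation response and training cannot be told apart in 1 library per group.

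By the level over 19 clusters, *Il1rn* was most similar to *Clec4d* (r = 0.90), *Nlrp3* to *Osm* (0.88), *Il1rap* to *Chil1* (0.90) and *Il1r1* to *Msrb3* (0.90). *Casp1* was most similar to *Tifa* (0.94), *Pycard* to *Ube2l3* (0.91) and *Il18* to *5031439G07Rik* (0.86). Among the members themselves, *Il1r1* ran opposite to *Casp1* (−0.64), and *Il1b* correlated with *Nlrp3* (0.77) and *Il1rap* (0.76) but not with *Pycard* (−0.12). These correlations describe the same 2 libraries, and clusters are not independent samples.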

How the data were processed

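The authors mapped the reads of both libraries and counted UMIs per gene and cell with Cell Ranger 7.0.0. They used the GRCm39 genome, although the labels also list mm10. Whether intronic reads were counted is not given in the sources used here. The deposited matrices hold raw counts (UMIs) for filtered barcodes, 7196 with β-glucan and 5760 with PBS, of which 7 were shared between the libraries. Tissue had been dissociated enzymatically at body temperature before sorting.

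Barcodes below 500 genes or above 10% mitochondrial UMIs were left out, leaving 78355957 and 70781891 UMIs. The remainder of the processing was done from these counts. Clusters were built with SCTransform (sctransform 0.4.2) and Seurat 5.3.0 in R 4.3.3, from 30 principal components at resolution 0.7, without the members, the listed IL-1 and inflammasome genes and the genes that the study compares. A class name required at least 3 markers. Doublet scores came from Scrublet in scanpy 1.11.5, and no cell was removed by them. UMIs were summed per library and class and divided by the summed total (CPM). Ratios carry exact conditional 95% intervals of 2 Poisson counts, and shares of cells carry exact Clopper-Pearson intervals. These cover counting error only. A gene was called measured at a mean of at least 5 CPM, or 20 CPM in neutrophil-like cells, and past the fold threshold beyond a log2 ratio of 0.32 either way, with no test. Named were all 10 members, up to 4 genes of each list (the 2 highest and the 2 with the largest ratio in the compartment), list genes with their highest class outside the compartment, and the genes most similar to a member over the clusters. *Il18rap* and *Irak2* in neutrophil-like cells are such genes. The members, lists and tests were chosen with earlier results of these data known. Genes that complete a count of 5 or fewer are also named. The cells carrying *S100a8* and *S100a9* and the 2 neutrophil-like clusters were examined after seeing the data.

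The calculation was run on simulated Poisson counts for the ratio over all cells, with 10388 genes: 95.3% of the intervals held the true value. The intervals assume such counts, so this checks the arithmetic only. It cannot show their coverage for UMIs that are concentrated in few cells. Promoter sequences and their build came from a RefSeq table in which all 10 members were matched, and gene coordinates from the GRCm39 annotation.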

Additional observations from a re-analysis of the deposited data

Results flagged for a closer look

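The genes *Il1b* and *Il1r2* had ratios of opposite sign in the main myeloid cell compartment and in neutrophil-like cells. For *Il1b* the log2 ratio, β-glucan over PBS, was 0.52 in the compartment and −0.85 in neutrophil-like cells, a difference of 1.37. For *Il1r2* it was 0.29 and −0.71, a difference of 1.0. With 1 library per group neither difference was tested. Without the compartment cells that carried *S100a8* and *S100a9* the compartment value was 0.12 for *Il1b* and −0.13 for *Il1r2*, and in the lower-UMI neutrophil-like cells alone the value was −0.14 and 0.01.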

How the results depend on the processing

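The *Il1b* log2 ratio in the compartment, 0.52, stayed above 0 under every alternative run: 0.68 with equal weight per cell, 0.36 with cells thinned to 2000 UMIs, 0.94 with equal weight per cluster, 0.39 with the members kept in the principal components, 0.91 with cells matched on how many of their UMIs came from genes spanning 100 kb or more, and 0.12 without the cells carrying *S100a8* and *S100a9*. In neutrophil-like cells, −0.85, it stayed below 0: −0.90 with a stricter filter on cells, −1.20 without the highest doublet scores, −0.95 with TMM scaling, −0.55 with equal weight per cell, −0.59 after thinning, −0.93 with the members in the principal components, −0.14 in the lower-UMI and −0.31 in the higher-UMI cluster. The cause of these shifts was not tested. Of ratios past the fold among measured members, signs turned for *Il1r2* over all cells (−0.27 with equal weight per cell, −0.14 thinned). In neutrophil-like cells the sign turned for *Il1rap* (0.052 thinned), and for *Il1r2*, *Il1rap* and *Nlrp3* in the lower-UMI cluster (0.0080, 0.31 and 0.071). *Il1a* and *Il1r1* were below the minimum of 20 CPM in neutrophil-like cells. Their ratios there, −0.67 on 17 and 12 UMIs and −0.48 on 29 and 18 UMIs, had intervals that held 0. The sign of *Il1r1* turned with equal weight per cell (0.10) and in the lower-UMI cluster (0.76). That of *Il1a* turned in the higher-UMI cluster (0.99). The values within a cluster rest on only part of these UMIs. *Il1r2* in the compartment, at 0.29 and thus not past the fold, turned to −0.13 without the cells carrying *S100a8* and *S100a9*. Within APC-like cells the *Il1r2* ratio stayed above 0 without them. Members past the fold, 1 over all cells, became 0 with TMM, 2 with a minimum of 1 CPM and 0 at 1.5-fold. Of all genes, 9.14%, 15.9% and 2.31% were past it in these settings, against 9.5% in the main one. In the compartment, 1 became 2 with totals without mitochondrial and ribosomal protein genes, 3 with TMM (*Il1b*, *Il1rn* and *Il1r1*), 0 with a minimum of 50 CPM and 0 at 1.5-fold. There 7.03%, 6.90%, 5.93% and 1.34% of all genes were past it, against 7.06% in the main setting. The 5 in neutrophil-like cells stayed within 1.5 times. At 1.5-fold they were 4, where the share of all genes was 20.8%, against 46.1% in the main setting. TMM moved the ratios in neutrophil-like cells by −0.10. No paired analysis was possible because each group has 1 library. For the same reason no replicate could be left out. Depth limits the members at a few CPM, *Il1a* above all.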
